A study of Mus musculus with 12 samples.

Results

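The collecting duct is the last stretch of the renal tubule, and 10 of its genes were followed here in kidney RNA, 10 of the 57490 genes in the table of counts. They were chosen by name for their roles in water, sodium and acid-base transport, and all 10 were found: Aqp2, Aqp3, Aqp4 and Avpr2 for water, Scnn1a, Scnn1b and Scnn1g for sodium, and Slc4a1, Slc26a4 and Foxi1 for acid-base transport. The series compared kidneys of 12 male mice by sequencing of polyadenylated RNA, with 4 mice per group and a library for each mouse. The Ctrl group held db/m mice (heterozygous for Leprdb) given purified water, the Model group held db/db mice given purified water, and the YHY group held db/db mice given a water extract of Yiqi Huoxue Yangyin Decoction at 6.24 g/mL. Which dose group of the study these YHY mice came from is not known. All mice were of BKS background (stock BKS.Cg-Dock7m +/+ Leprdb/JNju), were bought at 8 weeks of age and were 13 weeks old at collection, after 4 weeks of daily gavage with 50 µL for each 10 g of weight. The db/db mouse lacks functional leptin receptor in every cell and is obese as well as diabetic, so obesity and diabetes cannot be told apart in the comparison of Model with Ctrl. The sample labels name whole kidney tissue, whereas the description of the series names renal cortex.

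Principal cells of the collecting duct take up water through Aqp2, which vasopressin moves to the apical membrane by way of the Avpr2 receptor, and water leaves at the basolateral side through Aqp3 and Aqp4. The same cells reabsorb sodium through the epithelial sodium channel, whose subunits are encoded by Scnn1a, Scnn1b and Scnn1g. Intercalated cells, which depend on the transcription factor Foxi1, secrete acid (type A, with the anion exchanger Slc4a1) or bicarbonate (type B, with the anion exchanger Slc26a4).

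Total counts were 33276634, 29632718, 33236670 and 32677732 in Ctrl mice 1 to 4, 29784346, 26356745, 26095074 and 24415658 in Model mice 1 to 4, and 25310437, 25149764, 26187322 and 29698342 in YHY mice 1 to 4. Levels are given as counts relative to library size (CPM) after TMM scaling of the library, which sets the bulk of genes equal between mice. The 37 mitochondrial genes took 18.4% to 22.7% of counts in Ctrl mice, 41.2% to 58.9% in Model mice and 53.8% to 64.6% in YHY mice. Scaling without the mitochondrial genes left the count of members called as it was in each comparison (4 lower, 0 and 2 lower with 1 higher) and gave -1.19 for Aqp2 in Model against Ctrl. When the library total alone was used in place of TMM, the median log2 fold change of all genes shifted by -0.43 in Model against Ctrl and by -0.43 in YHY against Ctrl. With it, 21.4% of the called genes were higher in Model than in Ctrl in place of 51.5% (28.4% in place of 51.9% for YHY against Ctrl). Upper-quartile scaling shifted the same medians by 0.10 and 0.12. Fold changes are therefore relative to the bulk of genes in each mouse.

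Levels of different genes were compared per gene length, as FPKM (CPM divided by gene length in kilobases). In Ctrl mice Aqp2 stood highest with 458 ± 249 FPKM (SD, n = 4), and its lowest mouse (256 FPKM) was above the highest mouse of Aqp3 (64.1 FPKM). Aqp3 followed with 42.1 ± 15.3, Aqp4 with 24.4 ± 10.5 and Scnn1a with 20.9 ± 8.53 FPKM, and the ranges of neighbours in this order overlapped. Slc26a4 (12.3 ± 4.28), Scnn1b (10.0 ± 2.62), Foxi1 (7.91 ± 1.84), Scnn1g (7.64 ± 1.49) and Slc4a1 (7.62 ± 2.64 FPKM) formed a lower group whose ranges overlapped as well. Avpr2 was last as counted with 0.0268 ± 0.0185 FPKM, and its highest Ctrl mouse reached 0.0424 FPKM. It lies within other genes, which may have lowered its count. In Model mice the order changed below Aqp2 (202 ± 43.3 FPKM). Scnn1a (22.5 ± 6.51), Slc26a4 (14.5 ± 2.71), Aqp3 (12.8 ± 4.08) and Scnn1b (12.3 ± 1.33 FPKM) came next. Aqp4 (4.52 ± 1.40) and Foxi1 (4.43 ± 2.29 FPKM) stood below Slc4a1 (6.98 ± 0.353) and Scnn1g (6.49 ± 1.73 FPKM). In YHY mice Aqp2 (171 ± 121 FPKM) and Scnn1a (31.6 ± 11.7 FPKM) again led, and the other members but Avpr2 lay between 5.61 FPKM for Slc4a1 and 14.4 FPKM for Scnn1b.

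Whether untreated db/db kidneys differed from db/m kidneys in these genes was addressed by Model against Ctrl. A gene was called when edgeR's quasi-likelihood test gave a Benjamini-Hochberg adjusted p under 0.05 over the 17431 genes tested, and 9 of the 10 members were tested, Avpr2 having too few counts. All 3 aquaporin members and Foxi1 were lower in Model, by 5.39-fold for Aqp4, 3.29-fold for Aqp3, 2.27-fold for Aqp2 and 1.78-fold for Foxi1, while none of the sodium channel subunits or anion exchangers was called. Hence 4 of 9 members were called lower and 0 higher, where 18.5% of all genes were called lower and 19.6% higher. At the limits the study used (more than 1.2-fold and edgeR unadjusted p under 0.05) 4 members were lower and 0 higher, against 22.4% and 24.5% of all genes, and DESeq2 called 3 lower and 0 higher. The median log2 fold change was -0.23 over the 9 members and 0.04 over all genes. The count of 4 fell to 2 without Ctrl 1, Ctrl 4, Model 2 or Model 4, each of which ended the calls of Aqp2 and Foxi1.

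YHY against Model asked what differed after treatment, and shares the Model mice with the comparison above. Of the 9 members, 0 were called higher and 0 lower by edgeR, where 5.63% of all genes were called higher and 7.62% lower, and DESeq2 also called 0. Aqp4 was the 1 member higher at the study's limits (edgeR unadjusted p = 0.0304) and 0 were lower, against 13.9% and 14.7% of all genes. The median log2 fold change was 0.09 over the members and 0.02 over all genes. A missed threshold does not show that the groups were alike.

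YHY against Ctrl, which was not planned by the series and shares its mice with both other comparisons, gave where the treated db/db mice stood beside db/m mice. Aqp2 and Aqp3 were called lower in YHY, by 2.69-fold and 3.81-fold (the log2 fold change of Aqp2 went from -1.42 to -2.02 without YHY 1), and Scnn1b was called higher by 1.43-fold. The call of Scnn1b was lost under 13 of 21 alternatives. These 2 lower and 1 higher members of 9 stand beside 24.2% lower and 26.1% higher among all genes. At the study's limits 3 members were lower and 1 higher, against 26.6% and 29.4% of all genes. The median log2 fold change was -0.44 over the members and 0.10 over all genes. Differences between the 3 comparisons were not tested.

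**Figure D1:**
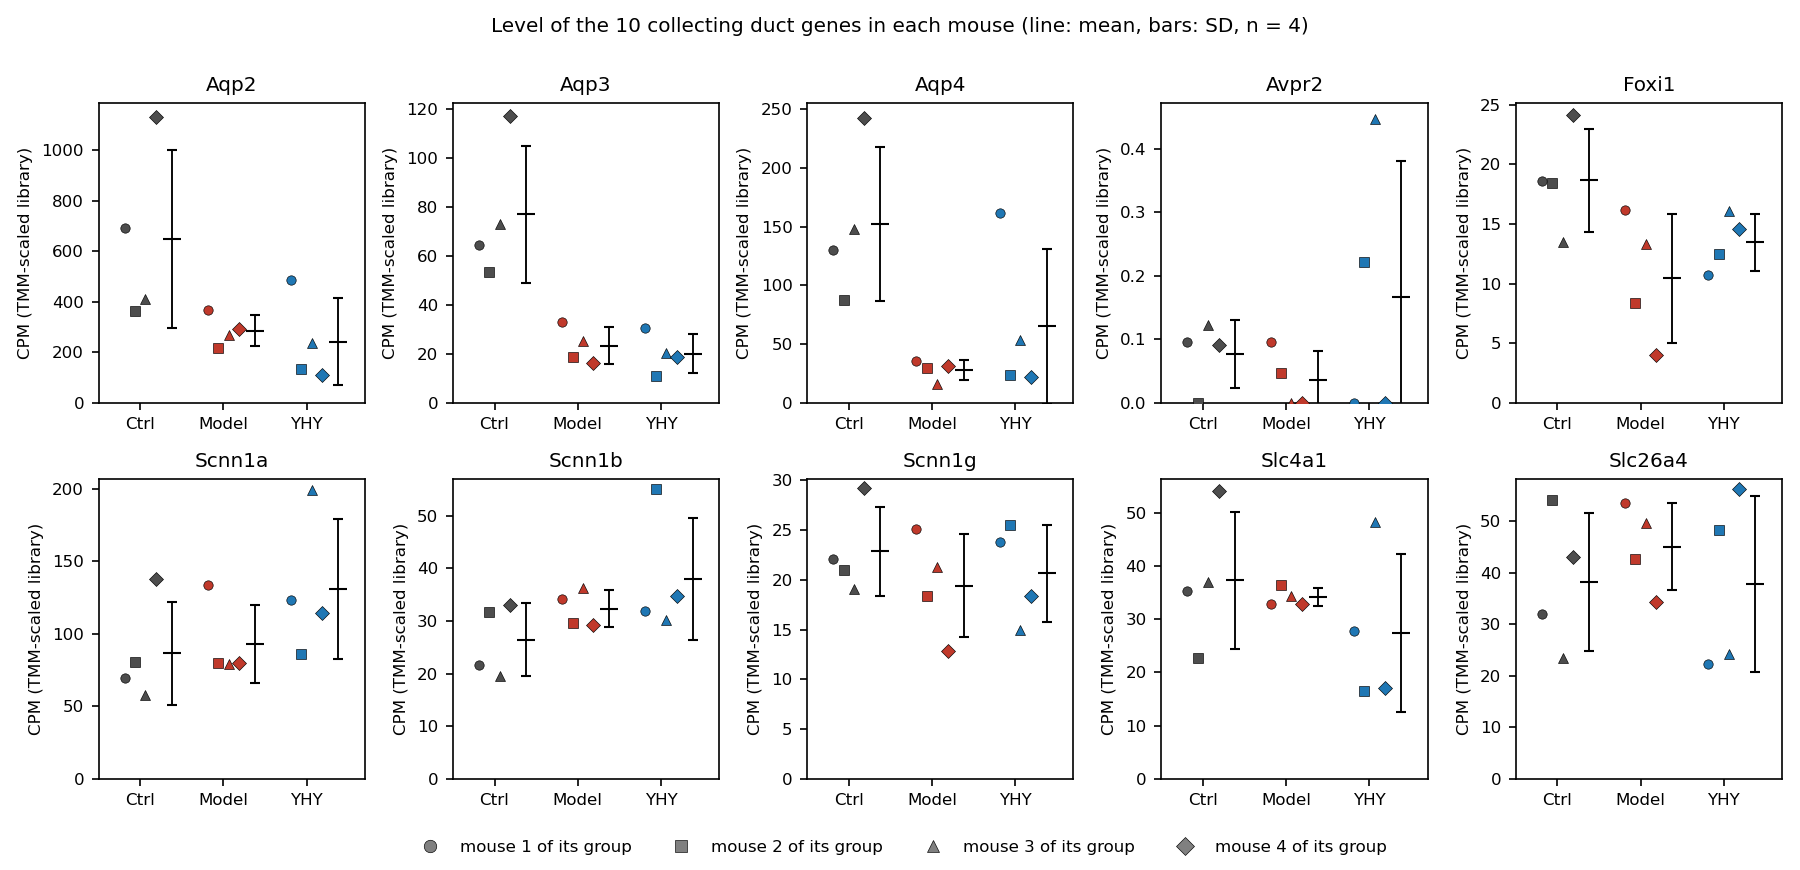
Level of each of the 10 members in CPM (TMM-scaled library) in every mouse of the Ctrl, Model and YHY groups, with the group mean and SD beside the points (n = 4). The Model mice sit below all Ctrl mice for Aqp3 and Aqp4, and YHY 1 stands at 161 CPM for Aqp4 while the other YHY mice lie between 21.8 and 53.9 CPM.

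Aqp2 (ENSMUSG00000023013, chr15:99476936-99482428 in GRCm39) encodes the vasopressin-regulated apical water channel. It was found at 692, 364, 412 and 1133 CPM in Ctrl mice 1 to 4, at 366, 219, 269 and 291 CPM in Model mice 1 to 4 and at 486, 134, 237 and 112 CPM in YHY mice 1 to 4. Model 2, Model 3 and Model 4 lay below every Ctrl mouse, while Model 1 was just above Ctrl 2, and YHY 1 lay within the Ctrl range while the other 3 YHY mice lay below it. The mean fell from 650.2 ± 353 CPM in Ctrl to 286 ± 61.4 CPM in Model, a log2 fold change of -1.18 (SE 0.42, edgeR adjusted p = 0.0354). This call was lost without Ctrl 1 (log2 fold change -1.19, edgeR adjusted p = 0.0653), Ctrl 4 (-0.82, 0.139), Model 2 (-1.08, 0.0981), Model 3 (-1.16, 0.0806) or Model 4 (-1.19, 0.0725), with DESeq2 (-1.18, 0.0780) and with upper-quartile scaling (-1.07, 0.0553). Across 21 alternatives its edgeR or DESeq2 adjusted p spanned 0.000831 to 0.139. In YHY the mean was 242 ± 172 CPM, which gave -1.42 against Ctrl (SE 0.42, edgeR adjusted p = 0.0101) and -0.24 against Model (SE 0.41, edgeR adjusted p = 0.757). The difference from Ctrl was -2.02 without YHY 1 (edgeR adjusted p = 0.000408). Without YHY 1 the difference from Model was -0.83 (edgeR adjusted p = 0.150, range over alternatives 0.150 to 0.994), and over Ctrl 1, 3 and 4, Model 2, 3 and 4 and YHY 1, 2 and 3 it turned to 0.16.

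Aqp3 (ENSMUSG00000028435, chr4:41092722-41098183 in GRCm39), a basolateral channel for water and glycerol, had 64.5, 53.3, 73.3 and 117 CPM in Ctrl mice 1 to 4. Model mice 1 to 4 had 33.0, 19.0, 25.3 and 16.2 CPM, and YHY mice 1 to 4 had 30.5, 11.1, 20.3 and 18.8 CPM. All 4 Model mice and all 4 YHY mice lay below the lowest Ctrl mouse, and the ranges of Model and YHY overlapped. The log2 fold change was -1.72 in Model against Ctrl (SE 0.30, edgeR adjusted p = 0.000389) and -1.93 in YHY against Ctrl (SE 0.30, edgeR adjusted p = 7.77e-05), and both calls held under all 21 alternatives. YHY against Model gave -0.21 (SE 0.30, edgeR adjusted p = 0.692), which turned to 0.06 over the 9 mice behind the authors' means and to 0.01 without Model 1.

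Aqp4 (ENSMUSG00000024411), the other basolateral water channel of principal cells, showed the largest fold change of the 9 members tested in Model against Ctrl. Ctrl mice 1 to 4 had 130.0, 87.7, 148 and 243 CPM, and Model mice 1 to 4 had 35.8, 29.7, 15.7 and 31.5 CPM. YHY mice 1 to 4 had 161, 23.7, 53.9 and 21.8 CPM. Model mice lay below all Ctrl mice, whereas the YHY mice were split. YHY 1 was above 3 Ctrl mice, YHY 3 lay between the Model and Ctrl ranges, and YHY 2 and YHY 4 lay within the Model range. The log2 fold change was -2.43 in Model against Ctrl (SE 0.53, edgeR adjusted p = 0.00198), a call that held under all 21 alternatives. YHY against Model gave 1.21 (SE 0.51, edgeR adjusted p = 0.130), which was 0.23 without YHY 1 (edgeR adjusted p = 0.734). It passed the threshold without YHY 4 (1.50, edgeR adjusted p = 0.0440), with adjusted p from 0.00800 to 0.734 over the alternatives. YHY against Ctrl gave -1.22 (SE 0.51, edgeR adjusted p = 0.0557). It was called without YHY 1 (-2.20, edgeR adjusted p = 0.000247) and without Ctrl 2 (-1.42, edgeR adjusted p = 0.0405). The call also came with library size alone (-1.57, edgeR adjusted p = 0.0279), without a filter (-1.25, 0.00103) and with the replicate block (-1.51, 0.0218), with adjusted p from 0.000247 to 0.164 over the alternatives. The antisense gene Gm50048, which overlaps Aqp4, had 0 to 14 counts per mouse.

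Avpr2 (ENSMUSG00000031390, chrX:72935708-72939108 in GRCm39), the vasopressin receptor of principal cells, had few counts. Its counts were 4, 0, 5 and 4 in Ctrl mice 1 to 4, 3, 1, 0 and 0 in Model mice 1 to 4 and 0, 4, 12 and 0 in YHY mice 1 to 4. Mice of each group had 0 counts, so Avpr2 was not tested and no fold change is given. The gene lies within L1cam (292 to 1489 counts) and Arhgap4 (50 to 135 counts) on the opposite strand. As the use of strand in counting is not given, reads of these genes cannot be told apart with certainty. Reads of Avpr2 may have been left out of its count, so the low counts do not show that its RNA was scarce. This was not tested.

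Promoters of 7 members were read from RefSeq (GRCm38.p6) as 300 bases, 250 before and 50 from the start of the gene. The set of promoters used here held none for Aqp4, Scnn1a and Slc4a1. The 7 promoters were searched on both strands for 5 motifs. These were a half-site of the cAMP response element, TGACG, and the motif that GATA factors bind, which reads AGATAA. The others were the CCAAT box, a TATA box spelled as TATAAA, and a motif of forkhead factors spelled as TGTTTAC. The promoters of Aqp2, Aqp3 and Foxi1 are shown because these members were called lower in Model, with each match in capitals. Aqp2 (chr15:99578806-99579105, plus strand) held the half-site as CGTCA on the minus strand at -211 from the start and the GATA motif as TTATCT on the minus strand at -202. Aqp3 (chr4:41098134-41098433, minus strand) held TATAAA at -29, and Foxi1 (chr11:34208040-34208339, minus strand) held CCAAT at -167.
Aqp2: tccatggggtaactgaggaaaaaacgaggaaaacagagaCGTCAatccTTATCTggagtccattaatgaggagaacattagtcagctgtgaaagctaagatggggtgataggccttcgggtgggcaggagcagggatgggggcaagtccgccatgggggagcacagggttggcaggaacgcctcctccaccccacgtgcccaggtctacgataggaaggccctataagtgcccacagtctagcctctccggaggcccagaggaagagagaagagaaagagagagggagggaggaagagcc
Aqp3: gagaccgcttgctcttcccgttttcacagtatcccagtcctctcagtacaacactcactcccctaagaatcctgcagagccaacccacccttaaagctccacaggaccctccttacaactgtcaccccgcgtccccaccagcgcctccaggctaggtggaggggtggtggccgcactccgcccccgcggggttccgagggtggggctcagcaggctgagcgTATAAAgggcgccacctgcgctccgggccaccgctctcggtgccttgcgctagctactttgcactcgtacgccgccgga
Foxi1: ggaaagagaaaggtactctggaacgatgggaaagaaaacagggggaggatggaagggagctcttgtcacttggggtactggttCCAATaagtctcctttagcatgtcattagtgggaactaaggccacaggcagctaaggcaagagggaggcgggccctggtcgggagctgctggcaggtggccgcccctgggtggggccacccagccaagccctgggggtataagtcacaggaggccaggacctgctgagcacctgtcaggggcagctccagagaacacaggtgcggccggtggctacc
Of 32851 promoters of this length, 20.8% held the cAMP half-site, 11.2% the GATA motif, 3.65% the forkhead motif, 13.6% the TATA box and 37.4% the CCAAT box. Among the other members, Slc26a4 had TATAAA at -31, Avpr2 had TGTTTAC at -131 and TTTATA on the minus strand at -45, and Scnn1b and Scnn1g held none of the 5 motifs in this window. A match here is a description of letters only, and these positions belong to GRCm38.p6, not to the build of the count table.

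**Figure D2:**
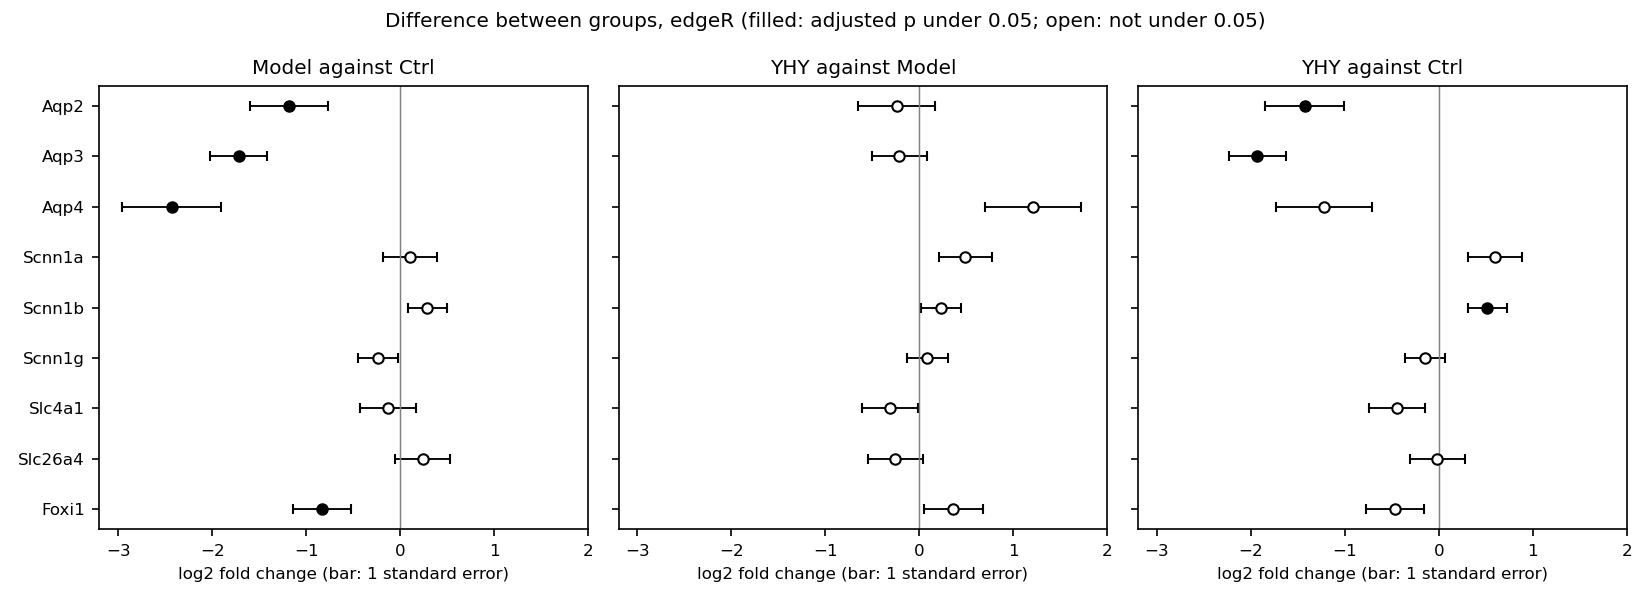
Log2 fold change of the 9 tested members in Model against Ctrl, YHY against Model and YHY against Ctrl, with bars of 1 standard error from edgeR; filled points had an adjusted p under 0.05. The 3 aquaporins lie farthest to the left in Model against Ctrl, at -1.18, -1.72 and -2.43, and the sodium channel subunits lie between -0.23 and 0.60 in all 3 comparisons; with library size alone Scnn1a, Scnn1b and Slc26a4 turned negative in Model against Ctrl.

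The pore-forming subunit Scnn1a (ENSMUSG00000030340, chr6:125297622-125321906 in GRCm39) had 69.8, 80.3, 58.1 and 138 CPM in Ctrl mice 1 to 4 and 133, 80.0, 79.0 and 79.9 CPM in Model mice 1 to 4. The 4 YHY mice had 123, 86.0, 199 and 115 CPM. Ctrl 4, Model 1 and YHY 3 stood well above the rest of their groups, and the 3 ranges overlapped. The log2 fold change was 0.11 in Model against Ctrl (SE 0.28, edgeR adjusted p = 0.797), which turned to -0.32 with library size alone, -0.18 without Model 1, -0.09 without Ctrl 3, -0.03 without Ctrl 1 and -0.21 over the 9 mice behind the authors' means. Treated against untreated db/db mice it gave 0.49 (SE 0.28, edgeR adjusted p = 0.273). YHY against Ctrl gave 0.60 (SE 0.28, edgeR adjusted p = 0.0922) and was called without Ctrl 4 (0.86, edgeR adjusted p = 0.0194) and without YHY 2 (0.75, edgeR adjusted p = 0.0451), with upper-quartile scaling (0.73, edgeR adjusted p = 0.0435) and without a filter (0.56, edgeR adjusted p = 0.0465), and over all alternatives it spanned 0.0194 to 0.675.

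Scnn1b (ENSMUSG00000030873, chr7:121464261-121517737 in GRCm39), the beta subunit, had 21.7, 31.6, 19.5 and 33.1 CPM in Ctrl mice 1 to 4 and 34.2, 29.6, 36.3 and 29.2 CPM in Model mice 1 to 4. YHY mice 1 to 4 were at 31.8, 55.1, 30.2 and 34.8 CPM. Ctrl 1 and Ctrl 3 were lower than every mouse of the other groups, and YHY 2 was the highest of all. YHY against Ctrl gave 0.52 (SE 0.21, edgeR adjusted p = 0.0487), close to the threshold. The call was lost without Ctrl 1 (0.37, edgeR adjusted p = 0.195), Ctrl 3 (0.33, 0.221), Model 1 (0.46, 0.0818), Model 2 (0.51, 0.0626), Model 3 (0.51, 0.0624), Model 4 (0.51, 0.0605), YHY 2 (0.28, 0.224) or YHY 4 (0.55, 0.0510). It was also lost with DESeq2, with the replicate block, over the 9 mice of the authors' means and over only the 8 mice compared. Across all settings the adjusted p spanned 0.0149 to 0.878, the highest with library size alone (0.04). Model against Ctrl gave 0.29 (SE 0.21, edgeR adjusted p = 0.294), which turned to -0.14 with library size alone, and YHY against Model gave 0.23 (SE 0.21, edgeR adjusted p = 0.508), which was -0.00319 without YHY 2. Scnn1b overlaps Cog7 on the opposite strand, which had 222 to 1150 counts per mouse, so part of its reads may belong to that gene.

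Scnn1g (ENSMUSG00000000216, chr7:121333702-121367698 in GRCm39), the gamma subunit, ranged from 19.1 to 29.3 CPM in Ctrl mice, from 12.9 to 25.1 CPM in Model mice and from 14.9 to 25.5 CPM in YHY mice. Its log2 fold changes were -0.23 in Model against Ctrl (SE 0.21, edgeR adjusted p = 0.416), 0.09 in YHY against Model (SE 0.22, edgeR adjusted p = 0.844; -0.07 without Model 4 and -0.03 without YHY 2) and -0.15 in YHY against Ctrl (SE 0.21, edgeR adjusted p = 0.592). The first of these passed the threshold with library size alone (-0.67, edgeR adjusted p = 0.0385, range 0.0385 to 0.799), a scaling that moved the median of all genes down. The ratio of Scnn1b to Scnn1g within a mouse, which does not depend on scaling, had a log2 mean of 0.19 ± 0.28 (SD) for Ctrl, 0.77 ± 0.31 for Model and 0.87 ± 0.31 for YHY. The differences of 0.58 and 0.67 from Ctrl had p = 0.0571 each in a two-sided exact permutation test (adjusted p = 0.343 over 18 tests), where the smallest p that 4 against 4 mice allow is 0.0286.

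Slc4a1 (ENSMUSG00000006574, chr11:102239650-102257029 in GRCm39), the basolateral chloride-bicarbonate exchanger of type A cells, had 35.3, 22.7, 36.9 and 54.2 CPM in Ctrl mice 1 to 4 and 32.8, 36.4, 34.4 and 32.8 CPM in Model mice 1 to 4. Values for YHY mice 1 to 4 were 27.8, 16.6, 48.3 and 17.0 CPM. Model mice were tightly grouped (SD 1.73 CPM) and lay inside the Ctrl range, while 3 of the 4 YHY mice lay below every Model mouse and YHY 3 lay above them. The log2 fold change was -0.13 in Model against Ctrl (SE 0.30, edgeR adjusted p = 0.764), which turned to 0.05 without Ctrl 4, and -0.31 in YHY against Model (SE 0.30, edgeR adjusted p = 0.534). YHY against Ctrl gave -0.44 (SE 0.30, edgeR adjusted p = 0.232) and was called without YHY 3 (-0.87, edgeR adjusted p = 0.00984, range 0.00984 to 0.530).

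Slc4a1 is also a main membrane protein of red blood cells, so the erythroid list was read beside it. Of its 12 genes 11 were found and 8 tested, with 3 called lower and 1 higher in Model against Ctrl, 2 higher in YHY against Model, and 2 higher and 1 lower in YHY against Ctrl (median log2 fold changes -0.58, 0.77 and -0.06, beside 0.04, 0.02 and 0.10 over all genes). Among all genes the shares were 19.6% higher and 18.5% lower, 5.63% and 7.62%, and 26.1% and 24.2%, in the same order. With library size alone 0, 1 and 0 of the list were higher and 3, 0 and 1 lower. Of the 2 higher in YHY against Model, Alas2 (1.71) was lost without Model 1 (1.61, edgeR adjusted p = 0.0786), Model 2 (1.63, 0.0679), Model 3 (1.79, 0.0629), Model 4 (1.81, 0.0504) or YHY 3 (1.46, 0.0706). Hbb-bs (1.29) was lost without Model 1 (1.32, edgeR adjusted p = 0.0608), Model 2 (1.30, 0.0609), Model 3 (1.27, 0.0813), Model 4 (1.28, 0.0651), YHY 3 (1.18, 0.0633) or YHY 4 (0.93, 0.0734). In Model against Ctrl the 1 higher, Hba-a2 (0.70), was lost without Ctrl 1 (0.55, edgeR adjusted p = 0.157), Ctrl 2 (0.64, 0.105), Ctrl 3 (0.61, 0.125), Model 1 (0.62, 0.0998), Model 2 (0.60, 0.130), Model 3 (0.76, 0.0585) or Model 4 (0.75, 0.0637), and of the 3 lower Hbb-bt (-1.17) was lost without Ctrl 4 (-0.94, edgeR adjusted p = 0.0713), Model 2 (-1.18, 0.0527), Model 3 (-1.08, 0.0669) or Model 4 (-1.17, 0.0533). In YHY against Ctrl Hba-a1 (0.99) was lost without Ctrl 1 (0.92, edgeR adjusted p = 0.0598), Ctrl 2 (0.89, 0.0605), Ctrl 3 (0.81, 0.0848) or YHY 4 (0.68, 0.0849). The 1 lower in YHY against Ctrl, Epb42, had 0, 0, 0 and 2 counts in YHY mice 1 to 4, and its fold change is not given. In YHY against Model 1 gene was lower without Model 4 or YHY 4, and 3 were higher without YHY 2. The summed level was 461, 309, 376 and 689 CPM in Ctrl mice 1 to 4 and 480.1, 435, 296 and 274 CPM in Model mice 1 to 4. In YHY mice 1 to 4 it was 494, 328, 794 and 1063 CPM. Hba-a1 was the most abundant gene of the list in sum over the mice (149.8 to 638 CPM), and the haemoglobin genes are near-identical copies whose reads could have been split. Rhag, a defining gene of the list, had 0 counts in 11 of 12 mice and 10 counts in Model 3. Ctrl 4 was highest in its group for both the list and Slc4a1, whereas in YHY mice the highest erythroid sum was in YHY 4, where Slc4a1 was at 17.0 CPM. The part of blood cells in the level of Slc4a1 was not tested.

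Slc26a4 (ENSMUSG00000020651, chr12:31569826-31609968 in GRCm39), which encodes the apical exchanger pendrin of type B cells, had 32.0, 54.1, 23.5 and 43.0 CPM in Ctrl mice 1 to 4 and 53.5, 42.6, 49.7 and 34.4 CPM in Model mice 1 to 4. The 4 YHY mice had 22.2, 48.2, 24.2 and 56.3 CPM. The YHY mice formed a low pair (YHY 1 and YHY 3) and a high pair (YHY 2 and YHY 4), whereas for Slc4a1 YHY 1 and YHY 3 were above the other pair. All 3 ranges of Slc26a4 overlapped. The log2 fold change was 0.24 in Model against Ctrl (SE 0.29, edgeR adjusted p = 0.549), which turned to -0.17 with library size alone, and -0.26 in YHY against Model (SE 0.29, edgeR adjusted p = 0.614). YHY against Ctrl gave -0.02 (SE 0.29, edgeR adjusted p = 0.969), with 0.09 under upper-quartile scaling, 0.19 without Ctrl 2, 0.17 without YHY 1, 0.14 without YHY 3 and values from -0.49 to 0.19 over the alternatives. The log2 ratio of Slc26a4 to Slc4a1 was -0.32, 1.54, -0.997 and 1.72 in YHY mice 1 to 4 and 0.71, 0.22, 0.53 and 0.07 in Model mice 1 to 4. The mean ratio was 0.03 ± 0.84 for Ctrl, 0.38 ± 0.29 for Model and 0.49 ± 1.35 for YHY, with exact permutation p of 0.457 to 0.943 for the 3 comparisons (adjusted p 0.748 to 0.943).

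Foxi1 (ENSMUSG00000047861, chr11:34154338-34158089 in GRCm39), whose promoter is shown above, had 18.6, 18.4, 13.5 and 24.1 CPM in Ctrl mice 1 to 4 and 16.2, 8.34, 13.3 and 3.98 CPM in Model mice 1 to 4. YHY mice 1 to 4 were at 10.7, 12.4, 16.1 and 14.6 CPM. Model 4 was the lowest of all 12 mice and Model 1 lay within the Ctrl range. The log2 fold change was -0.83 in Model against Ctrl (SE 0.31, edgeR adjusted p = 0.0461). This call was lost without Ctrl 1 (-0.88, edgeR adjusted p = 0.0686), Ctrl 2 (-0.84, 0.0711), Ctrl 4 (-0.73, 0.106), Model 2 (-0.74, 0.124), Model 4 (-0.56, 0.0957), YHY 2 (-0.83, 0.0516) or YHY 3 (-0.83, 0.0513). It was also lost with upper-quartile scaling (-0.73, edgeR adjusted p = 0.0739), with at least 10 counts in every mouse (-0.79, 0.0513) and with the replicate block (-0.89, 0.0602), and across 21 alternatives it spanned 0.00563 to 0.124. YHY against Model gave 0.36 (SE 0.31, edgeR adjusted p = 0.486) and YHY against Ctrl -0.47 (SE 0.31, edgeR adjusted p = 0.222), the latter called with library size alone (-0.90, edgeR adjusted p = 0.0372). In bulk tissue, fewer cells of a type and less RNA per cell cannot be told apart, for Foxi1 as for the other members.

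**Figure D3:**
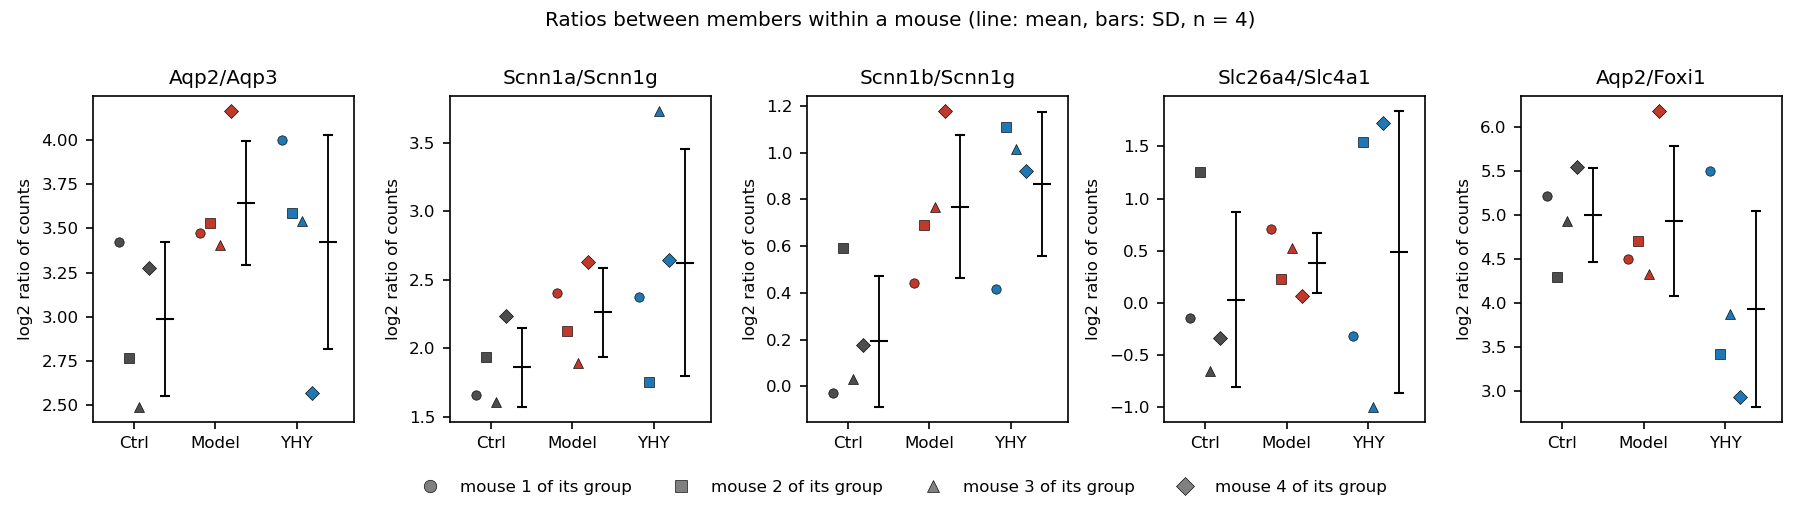
Log2 ratio of counts between pairs of members within each mouse of the Ctrl, Model and YHY groups, with the group mean and SD (n = 4). The ratio of Scnn1b to Scnn1g has group means of 0.19, 0.77 and 0.87, and the ratio of Slc26a4 to Slc4a1 spreads from -0.997 to 1.72 among YHY mice.

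Of the 18 tests of 6 ratios in 3 comparisons, 0 had an adjusted p under 0.05 and 0 an unadjusted p under 0.05 in the exact permutation test. Aqp2 relative to Aqp3 had a log2 mean of 2.99 ± 0.43 in Ctrl mice, 3.64 ± 0.35 in Model mice and 3.42 ± 0.60 in YHY mice. Model minus Ctrl was 0.65 (exact permutation p = 0.0571, adjusted p = 0.343). Aqp2 relative to Foxi1 had a mean of 5.003 ± 0.53 in Ctrl mice, 4.93 ± 0.85 in Model mice and 3.93 ± 1.116 in YHY mice (exact permutation p of 0.143 to 0.914). Scnn1a relative to Scnn1g had a mean of 1.86 ± 0.29 in Ctrl mice, 2.26 ± 0.32 in Model mice and 2.63 ± 0.83 in YHY mice (exact permutation p of 0.114 to 0.543). Of the 18 tests, 3 are of Aqp2 to Avpr2 and say nothing, since Avpr2 had 0 counts in 5 of 12 mice. They are counted in the adjustment, and no value of that ratio is given.

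Other markers of principal cells did not follow the aquaporins in a single direction. Of 7 markers, 1 was higher and 2 were lower in Model against Ctrl, 0 were called in YHY against Model by edgeR (DESeq2 called 3 higher and 1 lower), and 2 were higher and 2 lower in YHY against Ctrl (median log2 fold changes -0.65, 0.50 and 0.23, beside 0.04, 0.02 and 0.10 over all genes). The same comparisons had 19.6% of all genes higher and 18.5% lower, 5.63% and 7.62%, and 26.1% and 24.2%. Over the alternatives 1 to 2, 0 to 3 and 1 to 3 markers were higher and 1 to 3, 0 to 1 and 0 to 3 lower. Without Ctrl 4 the lower markers were 1 (Model against Ctrl) and 0 (YHY against Ctrl), and without YHY 2 or YHY 4, 3 were higher in YHY against Model. Their summed level was 566, 616, 513 and 763 CPM in Ctrl mice 1 to 4 and 638, 397, 447 and 438 CPM in Model mice 1 to 4. Values for YHY mice 1 to 4 were 495, 465, 508 and 379 CPM. Gata3, a transcription factor of the collecting duct, rose from 10.2 ± 0.986 CPM in Ctrl to 23.3 ± 1.44 in Model and 24.6 ± 4.26 in YHY (log2 fold changes 1.19 and 1.27 against Ctrl, edgeR adjusted p = 2.85e-05 and 5.57e-06). Hsd11b2, which protects the mineralocorticoid receptor from glucocorticoids, fell by 1.54 (log2) in Model against Ctrl (edgeR adjusted p = 0.000329) with -0.78 in YHY against Ctrl (edgeR adjusted p = 0.0191), the latter lost without Ctrl 4 (-0.66, edgeR adjusted p = 0.0584). The other lower marker, Kcnj1, had -1.12 in Model against Ctrl (edgeR adjusted p = 0.0199) and was lost without Ctrl 4 (-0.90, edgeR adjusted p = 0.0677), Model 2 (-0.98, 0.0682) or Model 3 (-1.04, 0.0595). In YHY against Ctrl it had -0.92 (edgeR adjusted p = 0.0374) and was lost without Ctrl 1 (-0.98, edgeR adjusted p = 0.0543), Ctrl 4 (-0.71, 0.121), YHY 1 (-0.81, 0.0898), YHY 2 (-0.70, 0.104) or YHY 4 (-0.87, 0.0732). That call was also lost with DESeq2, with upper-quartile scaling and over only the 8 mice compared. Calb1, which distal convoluted and connecting tubules also express, had the highest mean of the markers in Model (252 CPM) and YHY (134 CPM), and Kcnj1 had the highest in Ctrl (206 CPM, beside 164 for Calb1).

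The tonicity and medulla list was read beside the aquaporins because Aqp2, Aqp3 and Aqp4 are most abundant towards the medulla, so that the depth at which a piece of kidney is taken bears on them. Of its 6 genes 2 were lower and 1 higher in Model against Ctrl, 1 was higher in YHY against Model and 2 were higher in YHY against Ctrl (median log2 fold changes -0.57, 0.78 and -0.16, beside 0.04, 0.02 and 0.10 over all genes). Shares of all genes were 19.6% higher and 18.5% lower, 5.63% and 7.62%, and 26.1% and 24.2%. Summed levels were 852, 348, 570.1 and 915 CPM in Ctrl mice 1 to 4 and 403, 321, 319 and 375 CPM in Model mice 1 to 4. In YHY mice 1 to 4 it was 849, 298, 665 and 453 CPM. Slc6a6 had the highest mean of the list in Model (144 CPM), and Akr1b3 had it in Ctrl (229 CPM) and YHY (133.7 CPM). Akr1b3, the aldose reductase that makes sorbitol in the medulla, had 388, 91.5, 89.0 and 347 CPM in Ctrl mice 1 to 4 and 34.7, 24.0, 26.1 and 28.3 CPM in Model mice 1 to 4. The 4 YHY mice had 430.2, 24.2, 65.7 and 14.8 CPM. Model mice lay below all Ctrl mice (log2 fold change -3.01, SE 0.83, edgeR adjusted p = 0.00942), and the order of the YHY mice was that of Aqp4. Slc14a2, a urea transporter of the inner medulla, ranged from 12.8 CPM in Ctrl 2 to 171 CPM in YHY 3 and was detected in every mouse. Other genes of the list were called higher. Slc6a12, the betaine carrier, had log2 fold changes of 1.22 in Model against Ctrl (edgeR adjusted p = 0.0113) and 1.08 in YHY against Ctrl (edgeR adjusted p = 0.0162; 0.85 and 0.0584 without YHY 1). Nfat5, the transcription factor of the tonicity response, had 0.86 in YHY against Model (edgeR adjusted p = 0.00743) and 1.04 in YHY against Ctrl (edgeR adjusted p = 0.000210). With library size alone 0 genes of the list were called higher in any comparison. Without YHY 2 or YHY 4, 2 were higher in YHY against Model, without YHY 1 or YHY 4, 1 was lower in YHY against Ctrl, and without Ctrl 2, 3 were lower in Model against Ctrl. Slc5a3, the inositol carrier, fell by 1.03 (log2) in Model against Ctrl (edgeR adjusted p = 0.0194) and was not called without Ctrl 4 (-0.89, edgeR adjusted p = 0.0558), Model 2 (-0.99, 0.0537) or Model 3 (-0.97, 0.0562).

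YHY 1, the mouse with the highest Aqp2, Aqp3 and Aqp4 of its group, had the highest summed level of urothelium genes of all 12 mice. The 6 urothelium genes, which mark the lining of the renal pelvis, summed to 61.9 CPM in YHY 1 and to 15.8, 13.0 and 4.88 CPM in YHY mice 2 to 4, beside 17.7, 5.12, 15.1 and 14.98 CPM in Ctrl mice 1 to 4 and 9.56, 4.81, 8.86 and 11.3 CPM in Model mice 1 to 4. The gene with the highest mean was Upk3a in Ctrl (4.45 CPM), Upk1b in Model (2.28 CPM) and Upk2 in YHY (6.19 CPM). Krt5 was at 0 in Model 2, and Krt20 was at 0 in Model 4 and YHY 3. None of the 6 was called in Model against Ctrl or YHY against Model by edgeR (DESeq2 called 0 and 1), where all genes had 19.6% higher and 18.5% lower and then 5.63% and 7.62%. The median log2 fold changes of the list were -0.47, 1.43 and 0.84, beside 0.04, 0.02 and 0.10 over all genes. In YHY against Model 1 was higher without Model 4 and 2 without YHY 4, and in Model against Ctrl 1 was lower without Model 4. In YHY against Ctrl, with 26.1% of all genes higher and 24.2% lower, 1 was lower without YHY 1, and Upk2 was called higher (1.87, edgeR adjusted p = 0.0450) but not without YHY 1 (0.78, edgeR adjusted p = 0.363). That call was also lost without Ctrl 1 (1.94), Ctrl 2 (1.64), Ctrl 3 (1.98), Ctrl 4 (1.86), Model 1 (1.84), Model 3 (1.87), Model 4 (1.87) or YHY 2 (2.01). It was also lost with DESeq2, library size alone, the replicate block and only the 8 mice compared, with edgeR or DESeq2 adjusted p from 0.00277 to 0.363 over the alternatives. Of the 7 principal cell markers, 3 (Elf5, Fxyd4 and Gata3) were highest in YHY 1 among the YHY mice and 4 were not, and their sum was 495 CPM in YHY 1 and 508 CPM in YHY 3. The part of medullary or pelvic tissue in the levels of the aquaporins was not tested, and the differences of Aqp4 are given above with and without YHY 1.

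**Figure D4:**
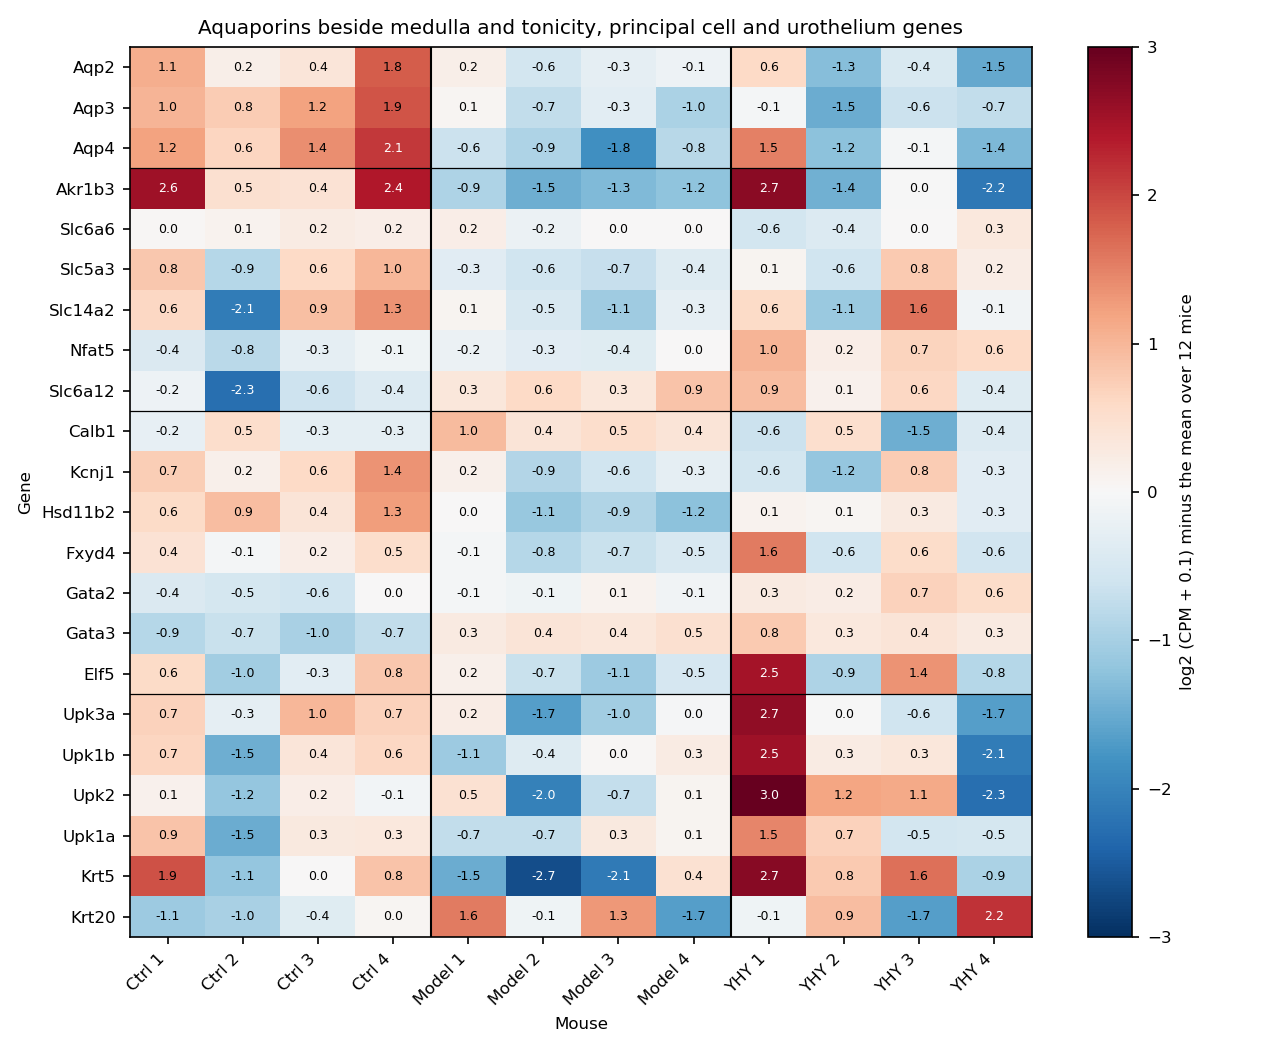
Log2 of CPM plus 0.1 minus the mean over 12 mice for Aqp2, Aqp3 and Aqp4 and for all genes of the medulla and tonicity, principal cell and urothelium lists, with mice in columns by group. In the Model columns Aqp4 and Akr1b3 are below their means in all 4 mice and Gata3 is above its mean in all 4, while YHY 1 is above the mean for all 3.

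Of 8 other aquaporins 5 were tested, with 3 lower and 0 higher in Model against Ctrl (Aqp11, Aqp1 and Aqp7), 2 lower and 0 higher in YHY against Model, and 4 lower and 0 higher in YHY against Ctrl, and DESeq2 likewise called 0 higher (median log2 fold changes -0.77, -0.87 and -1.81, beside 0.04, 0.02 and 0.10 over all genes). In the same comparisons 18.5%, 7.62% and 24.2% of all genes were lower and 19.6%, 5.63% and 26.1% higher. The 2 lower in YHY against Model were Aqp8 and Aqp11, and the count ran from 0 to 3 over the alternatives. Aqp11 could be tested in 21 alternatives but Aqp8 in 20, as its counts failed a filter. Aqp8 was lost without Model 1 (-2.49, edgeR adjusted p = 0.0501), and Aqp11 without Model 1 (-0.77, 0.0830), Model 3 (-0.92, 0.0728), YHY 1 (-0.81, 0.0705), YHY 2 (-0.84, 0.0735) or YHY 3 (-0.84, 0.0691). Aqp11 was also lost with the replicate block and over only the 8 mice compared. The 4 lower in YHY against Ctrl included Aqp8 (-1.88, and -2.60 without YHY 3), which was lost without Ctrl 1 (-1.63, edgeR adjusted p = 0.0807) or YHY 1 (-1.58, 0.0690) and over only the 8 mice compared. Aqp1, the water channel of proximal tubule and thin limbs, averaged 735 ± 217 CPM in Ctrl mice, 383 ± 99.7 CPM in Model mice and 209 ± 83.5 CPM in YHY mice. Its log2 fold change was -0.94 in Model against Ctrl (edgeR adjusted p = 0.0162; -0.78 and 0.0527 without Ctrl 4) and -1.81 in YHY against Ctrl (edgeR adjusted p = 1.00e-04). Aqp11 was at 47.1 ± 9.81, 23.3 ± 5.87 and 12.2 ± 5.66 CPM in the 3 groups, with log2 fold changes of -1.01 in Model against Ctrl (edgeR adjusted p = 0.00589) and -1.95 in YHY against Ctrl (edgeR adjusted p = 2.31e-05). Aqp9, Aqp12 and Mip were not tested, and Aqp12 had 0 counts in every mouse.

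Among 12 genes of the vasopressin signal downstream of Avpr2, 3 were higher and 6 lower in Model against Ctrl, 2 higher and 1 lower in YHY against Model, and 3 higher and 6 lower in YHY against Ctrl (median log2 fold changes -0.46, 0.03 and -0.29). Of all genes, 19.6% were higher and 18.5% lower, 5.63% and 7.62%, and 26.1% and 24.2%, in the same order of comparisons. With library size alone 1, 0 and 1 of the list were higher and 6, 1 and 7 lower, and with upper-quartile scaling 4, 2 and 3 were higher and 4, 1 and 5 lower. The 6 lower in Model against Ctrl became 4 without Model 2 or Model 4 and 5 without Ctrl 4 or Model 3, and the 6 in YHY against Ctrl became 5 without Ctrl 2 or YHY 3. The 2 higher in YHY against Model were Creb1 (0.65), lost without Model 3 (0.55, edgeR adjusted p = 0.0635), and Adcy6 (0.54), lost without Ctrl 2 (0.54, edgeR adjusted p = 0.0503), Ctrl 3 (0.54, 0.0555), Model 1 (0.45, 0.0984), Model 3 (0.52, 0.113), Model 4 (0.55, 0.0771), YHY 2 (0.51, 0.0828) or YHY 3 (0.49, 0.0907), and also over the 9 mice of the authors' means. Pde4d, a phosphodiesterase that breaks down cAMP, rose by 1.198 (log2) in Model against Ctrl (edgeR adjusted p = 0.00159), and the adenylyl cyclase Adcy6 rose by 1.19 in YHY against Ctrl (edgeR adjusted p = 2.92e-05). Gnas, which encodes the stimulatory G protein subunit, fell by 1.23 in Model against Ctrl (edgeR adjusted p = 0.00878). Its level was low, at 9.38 ± 1.80 CPM in Ctrl and 3.99 ± 1.66 CPM in Model. Creb1, a transcription factor activated by cAMP signalling, fell by 0.84 in Model against Ctrl (edgeR adjusted p = 0.000771). Prkar2a, a regulatory subunit of protein kinase A, fell by 0.70 in YHY against Model (edgeR adjusted p = 0.00458). Which kidney cells these changes came from was not tested.

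Of 11 genes of sodium transport and its regulation, 3 were higher and 2 lower in Model against Ctrl, 2 higher and 1 lower in YHY against Model, and 5 higher and 4 lower in YHY against Ctrl (median log2 fold changes 0.26, 0.13 and 0.22). Of all genes, 19.6% were higher and 18.5% lower, 5.63% and 7.62%, and 26.1% and 24.2%, in the same order of comparisons. With library size alone 1, 0 and 2 of the list were higher and 4, 1 and 4 lower. With upper-quartile scaling 5, 2 and 5 were higher and 2, 1 and 3 lower. The 3 higher in Model against Ctrl became 1 without Ctrl 3, where Wnk1 (0.57, edgeR adjusted p = 0.0569) and Nedd4l (0.46, 0.0658) were lost. Nedd4l was also lost without Ctrl 1 (0.50, edgeR adjusted p = 0.0508) or Model 4 (0.45, 0.0511), and 4 were higher without YHY 1. The lower genes became 3 in Model against Ctrl without Ctrl 1, Ctrl 4, Model 1, YHY 1 or YHY 4, and 2 in YHY against Model without Ctrl 2, YHY 2 or YHY 4. The 2 higher in YHY against Model were Sgk1 (1.06, edgeR adjusted p = 0.0432) and Atp1b1 (0.76, edgeR adjusted p = 0.0497), and Sgk1 was lost without Ctrl 1 (1.04, edgeR adjusted p = 0.0577), Ctrl 3 (1.04, 0.0538), Model 1 (1.08, 0.0796), Model 2 (1.02, 0.0963), Model 3 (1.05, 0.109), Model 4 (1.08, 0.0820), YHY 1 (1.10, 0.0587), YHY 2 (1.09, 0.0677) or YHY 4 (0.66, 0.129). Atp1b1 was lost without Ctrl 1 (0.75, edgeR adjusted p = 0.0777), Ctrl 3 (0.75, 0.0778), Ctrl 4 (0.75, 0.0548), Model 2 (0.73, 0.109), Model 3 (0.69, 0.143), Model 4 (0.67, 0.128), YHY 1 (0.70, 0.103), YHY 3 (0.67, 0.115) or YHY 4 (0.74, 0.0676). Atp1b1, the beta subunit of the sodium pump, was lower in Model against Ctrl with a log2 fold change of -2.18 (edgeR adjusted p = 1.65e-05). Usp2, a ubiquitin-specific protease, rose from 65.6 ± 19.7 CPM in Ctrl to 238 ± 41.3 CPM in Model, a log2 fold change of 1.86 (edgeR adjusted p = 0.000162). Sgk1, the aldosterone-induced kinase, was at 165, 168, 75.1 and 312 CPM in YHY mice 1 to 4 and at 66.5 ± 26.2 CPM in Ctrl (log2 fold change 1.43, edgeR adjusted p = 0.00196). Prss8, a protease that activates the channel, fell by 1.09 in YHY against Ctrl (edgeR adjusted p = 0.000267), and the protease Furin fell by 0.70 in YHY against Model (edgeR adjusted p = 0.00475).

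Beside Slc26a4, 2 of 3 type B intercalated cell genes were higher in both db/db groups. Slc4a9, the basolateral exchanger of type B cells, had 25.0, 44.1, 18.0 and 37.4 CPM in Ctrl mice 1 to 4 and 60.5, 72.7, 74.7 and 56.5 CPM in Model mice 1 to 4. YHY mice 1 to 4 were at 128, 226, 120.3 and 136 CPM. The 3 groups did not overlap, and the log2 fold changes were 1.09 in Model against Ctrl (SE 0.26, edgeR adjusted p = 0.00357), 1.21 in YHY against Model (SE 0.26, edgeR adjusted p = 0.00758) and 2.29 in YHY against Ctrl (SE 0.27, edgeR adjusted p = 5.35e-06). Insrr, a receptor that senses alkaline pH, was at 12.9 ± 4.80, 25.3 ± 2.41 and 43.6 ± 6.36 CPM, with log2 fold changes of 0.97, 0.79 and 1.76 in the same order (edgeR adjusted p = 0.00231, 0.0242 and 9.76e-06). Its call in YHY against Model was lost without Model 1 (0.73, edgeR adjusted p = 0.0662), Model 2 (0.77, 0.0564), Model 3 (0.80, 0.0633) or YHY 2 (0.68, 0.0653). Oxgr1, the remaining gene of the 3, was at 11.5 ± 2.49, 9.69 ± 4.09 and 8.70 ± 5.13 CPM and was not called, so that 2 of 3 were higher and 0 lower by edgeR in each comparison, and DESeq2 gave the same counts (median log2 fold changes 0.97, 0.79 and 1.76). Of all genes, 19.6% were higher and 18.5% lower, 5.63% and 7.62%, and 26.1% and 24.2%, in the same order. Summed levels of the list were 49.1, 78.2, 34.7 and 59.9 CPM in Ctrl mice 1 to 4 and 97.1, 106, 112 and 89.3 CPM in Model mice 1 to 4. Values for YHY mice 1 to 4 were 171, 287, 168 and 193 CPM.

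**Figure D5:**
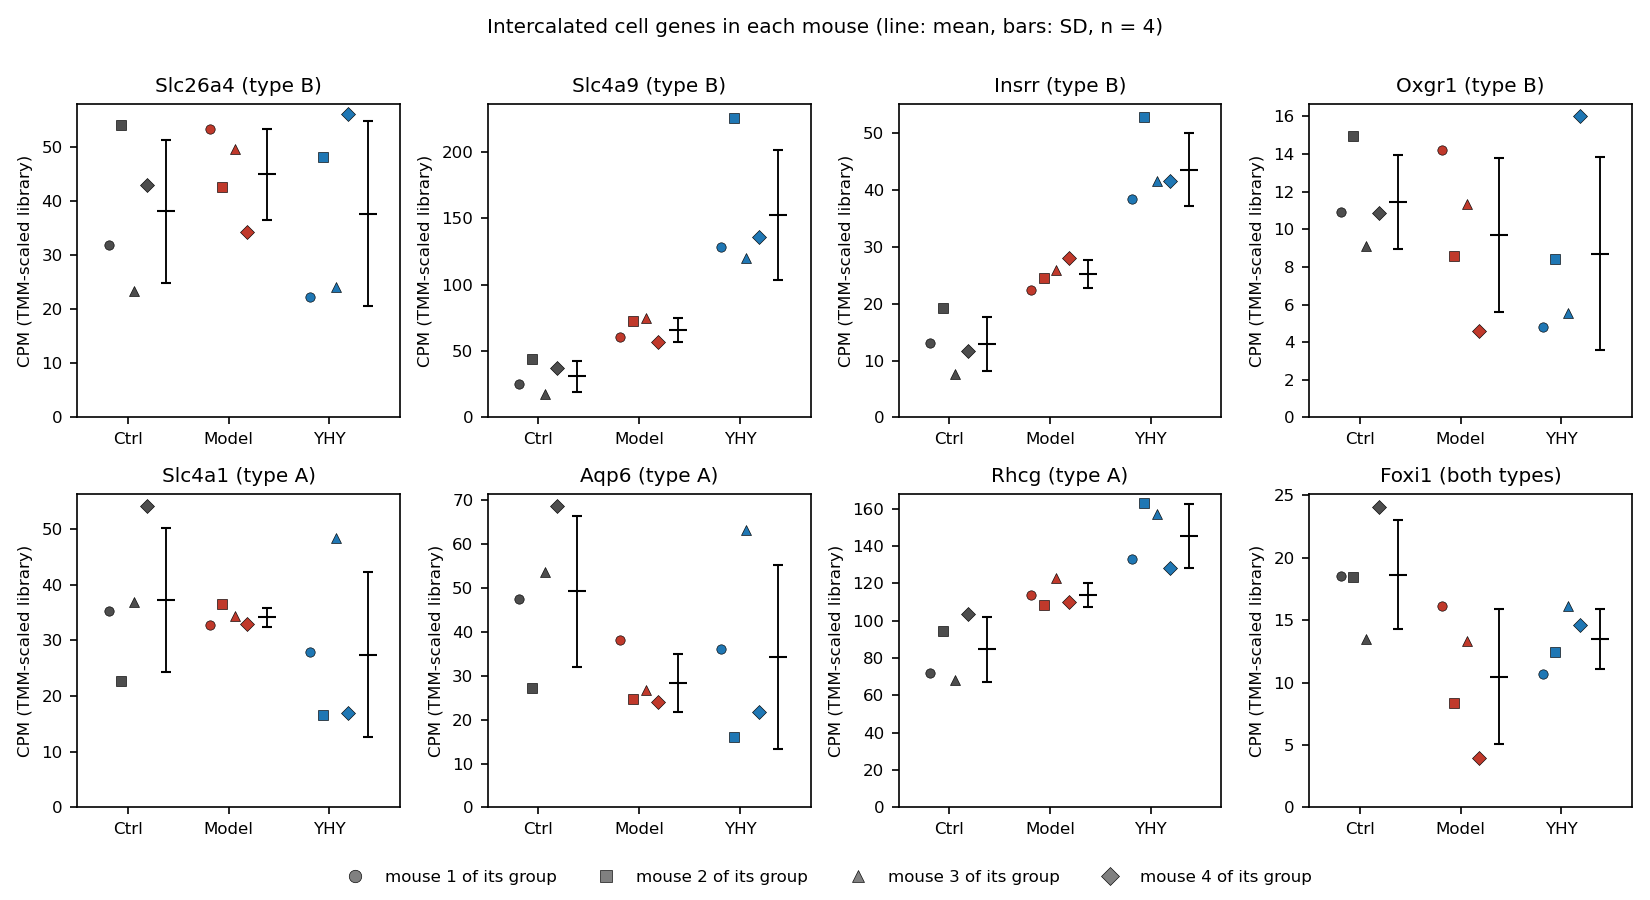
Level in CPM (TMM-scaled library) of the type B genes Slc26a4, Slc4a9, Insrr and Oxgr1, the type A genes Slc4a1, Aqp6 and Rhcg and the shared factor Foxi1 in every mouse of the Ctrl, Model and YHY groups, with the mean and SD (n = 4). Slc4a9 separates the groups, with 18.0 to 44.1 CPM in Ctrl, 56.5 to 74.7 in Model and 120.3 to 226 in YHY, whereas Slc26a4 overlaps in all 3.

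Type A genes gave a mixed picture. Of 7, 1 was higher and 2 were lower in Model against Ctrl, 1 was higher in YHY against Model, and 2 were higher and 1 lower in YHY against Ctrl (median log2 fold changes 0.05, 0.35 and -0.05), and their sum ran from 151 to 254 CPM over the mice with Rhcg the most abundant. Of all genes, 19.6% were higher and 18.5% lower, 5.63% and 7.62%, and 26.1% and 24.2%, in the same order. With library size alone 0 of the list were higher in any comparison and 3, 0 and 1 were lower. Without Ctrl 2, YHY 2 or YHY 3, 3 were lower in Model against Ctrl, and without YHY 3, 2 were lower in YHY against Ctrl. Without Ctrl 2 or YHY 4, 2 were higher in YHY against Model. The 1 higher in YHY against Model was Kit (0.76), lost without Model 1 (0.79, edgeR adjusted p = 0.0614), Model 2 (0.82, 0.0564), Model 3 (0.86, 0.0559), Model 4 (0.60, 0.0962), YHY 2 (0.58, 0.1096) or YHY 3 (0.74, 0.0687), and also with library size alone and over only the 8 mice compared. Rhcg, an ammonia channel, rose by 0.78 (log2) in YHY against Ctrl (edgeR adjusted p = 0.000734). Its rise of 0.43 in Model against Ctrl (edgeR adjusted p = 0.0438) turned to -0.0079 with library size alone. It was also lost without Ctrl 1 (0.31), Ctrl 3 (0.29), Model 1 (0.37), Model 2 (0.45), Model 3 (0.38) or Model 4 (0.44), with adjusted p from 0.0145 to 0.979 over the alternatives. Avpr1a, a vasopressin receptor of intercalated cells, fell by 1.19 in Model against Ctrl (edgeR adjusted p = 0.0137) with a log2 fold change of -1.87 in YHY against Ctrl (edgeR adjusted p = 0.000431). Slc26a7, an exchanger of acid-secreting cells, fell by 1.35 in Model against Ctrl (edgeR adjusted p = 0.00978).

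Among 10 genes that both types of intercalated cell share, 2 were higher and 0 lower in Model against Ctrl by edgeR (DESeq2 called 2 and 1), 0 higher and 2 lower in YHY against Model (DESeq2 the same), and 2 higher and 2 lower in YHY against Ctrl (median log2 fold changes 0.00, 0.00 and -0.20). Of all genes, 19.6% were higher and 18.5% lower, 5.63% and 7.62%, and 26.1% and 24.2%, in the same order. With library size alone the list had 2, 0 and 1 higher and 3, 2 and 5 lower, and over the 9 mice of the authors' means 2, 0 and 2 higher and 2, 2 and 3 lower. In YHY against Ctrl, upper-quartile scaling gave 4 higher and 2 lower, and DESeq2 gave 3 higher and 2 lower. The lower genes in Model against Ctrl became 1 without Ctrl 1, YHY 1 or YHY 4 and 2 without Model 1, and in YHY against Ctrl 3 were higher without Ctrl 4, YHY 1 or YHY 4 and 3 lower without YHY 4. Of the 2 lower in YHY against Model, Car12 (-0.87) was lost without Model 1 (-0.69, edgeR adjusted p = 0.0796), Model 3 (-0.83, 0.0811), YHY 1 (-0.71, 0.0711), YHY 2 (-0.88, 0.0555) or YHY 3 (-0.80, 0.0687), and also with the replicate block and over only the 8 mice compared. Atp6v1g3, a subunit of the proton pump, was at 30.4, 35.4, 46.1 and 30.9 CPM in YHY mice 1 to 4, all below the lowest Model mouse at 51.0 CPM (log2 fold change -1.13, SE 0.23, edgeR adjusted p = 0.00568). Tfcp2l1 had the highest mean of this list in Model (135 CPM) and YHY (177 CPM) and Car12 in Ctrl (146 CPM), and the summed level ran from 536 to 776 CPM. Of 8 other acid-base genes 7 were tested, with 1 higher (Car15) and 1 lower (Car4) in Model against Ctrl, 0 called in YHY against Model by edgeR (DESeq2 called 1 higher and 1 lower), and 1 higher and 2 lower in YHY against Ctrl (median log2 fold changes -0.06, -0.29 and -0.10). In YHY against Ctrl 2 of these were higher without any single mouse other than YHY 2, YHY 3 or YHY 4, and 3 were lower without YHY 3. The 1 higher there, Slc9a3 (0.70), was lost with library size alone, which left 0 higher. In YHY against Model 1 was higher without Model 4, and 1 higher and 1 lower without YHY 4. In Model against Ctrl 2 were lower without Model 1. Car4, a membrane-bound carbonic anhydrase, fell by 1.63 in Model against Ctrl (edgeR adjusted p = 0.000117) and had a log2 fold change of -1.97 in YHY against Ctrl (edgeR adjusted p = 9.99e-06).

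Genes whose variation between mice most resembled that of a member were ranked by Pearson r of log2 CPM after subtraction of the group means, over 12 mice and 16802 genes, as a description with no test. For Aqp2 these were Endod1 (r = 0.974), AU021092 (0.962), Adgra1 (0.961), Slc7a1 (0.960) and Serinc3 (0.959). For Slc4a1 they were Slc2a1 (r = 0.952), Zdhhc18 (0.935), Nfe2l1 (0.932), Rfk (0.932) and Tspan12 (0.931), and for Foxi1 Bcl2l15 (r = 0.923), Vangl2 (0.920), Tmem185a (0.911), Rdh7 (0.902) and Asb15 (0.898). Bcl2l15, Rdh7 and Adgra1 had a mean of 0.364, 0.545 and 0.851 CPM, so their values rest on few counts. Within the members, the r with Aqp2 was 0.88 for Aqp4, 0.76 for Aqp3, 0.65 for Slc4a1, 0.57 for Scnn1a, 0.35 for Scnn1g, 0.13 for Foxi1, -0.12 for Scnn1b and -0.47 for Slc26a4.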

How the data were processed

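RNA of 12 mouse kidneys was sequenced as polyadenylated RNA, with a library for each mouse. The counts are whole reads per gene that the authors deposited, with no scaling before deposit. The signal values are group means the authors deposited, made from counts divided by a factor per library; they matched means over Ctrl 1, 3 and 4, Model 2, 3 and 4 and YHY 1, 2 and 3, with a largest difference of 0.000593, and were used only to find these 9 mice. Gene length was taken as deposited. The authors' columns of fold changes and p-values, the 12 columns per mouse in the 2 comparison tables and the 2 tables of KEGG pathways were not used. The submitters' processing notes name FastQC 0.11.9, Trimmomatic 0.39, HISAT2 2.2.1, SAMtools 1.12, featureCounts 2.0.1, DESeq2 1.34.0, R 4.1.2 and GRCm39, and the use of strand in counting is not given in the sources used here.

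Counts of all 12 mice were fitted together in edgeR 4.0.16 under R 4.3.3. Genes were kept by filterByExpr, libraries were scaled by TMM, the quasi-likelihood test was used, and p-values were adjusted by Benjamini-Hochberg over 17431 genes. CPM used the TMM-scaled library, and likeness was computed on log2 CPM with a prior count of 2. Ratios used a prior count of 0.5 and an exact permutation test. No fold was given for a gene at or under 3 counts in a group, as for Epb42. Avpr2 was removed by filterByExpr and has no fold for that reason. Alternatives used DESeq2 1.42.0, other scalings and filters, left-out mice and a replicate block; the scripts were run on simulated data first. Python 3.11.15 with numpy 2.4.6, pandas 2.3.3, scipy 1.17.1, statsmodels 0.14.6 and matplotlib 3.10.9 did the rest. The members and lists were chosen with earlier results of these data known. From each list up to 3 higher and 3 lower genes with the largest change could be named. Between mice of a group, counts differed with a chi-square per degree of freedom of 17.3 to 138.9. This sets separate mice against counting noise alone, so no conclusion is drawn from it.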

Additional observations from a re-analysis of the deposited data

Results flagged for a closer look

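In each group of 4 mice a value that stood far from the other 3 was picked out by Dixon's ratio, a rule that picks out about 1 in 20 groups by chance; 9 of 105 groups were picked out. Scnn1a in Model 1 was at 133 CPM, while the other Model mice had 79.0 to 80.0 CPM. The summed sodium channel and aldosterone list in Model 1 was 2513 CPM (others 1969 to 2011), the summed type A list in Ctrl 4 was 212.3 CPM (others 151 to 152), the summed distal convoluted tubule list in YHY 2 was 572 CPM (others 339 to 367), and the summed endothelium list in Ctrl 2 was 102 CPM (others 151 to 160.4). The log2 ratio of Aqp2 to Aqp3 in Model 4 was 4.16 (others 3.41 to 3.53). The mitochondrial share was 22.7% in Ctrl 2 (others 18.4% to 18.6%) and 64.6% in YHY 2 (others 53.8% to 54.6%). Total counts in Ctrl 2 were 29632718 (others 32677732 to 33276634).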

How the results depend on the processing

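Members called lower in Model against Ctrl (4) were 2 with upper-quartile scaling and 2 to 4 when 1 mouse was left out. Members called higher in YHY against Model (0) were 1 without a filter and 1 at the study's limits, and 0 to 1 when 1 mouse was left out. Members called higher in YHY against Ctrl (1) were 0 with DESeq2, 0 with library size alone, 2 with upper-quartile scaling, 2 without a filter, 0 over the 9 mice of the authors' means and 0 over only the 8 mice compared, and 0 to 2 when 1 mouse was left out. Members called lower in YHY against Ctrl (2) were 4 with library size alone and 2 to 3 when 1 mouse was left out. Rhcg in Model against Ctrl had a log2 fold change of -0.00786 with library size alone.

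With mouse number as a replicate block, 3 members were lower in Model against Ctrl, 3 were lower and 0 higher in YHY against Ctrl. Mice of the same number in different groups were not alike: their correlations ran from -0.17 to 0.12 in 12 pairs, beside -0.25 to 0.21 in 36 pairs of different number, so mice were treated as unpaired. The groups had 4 mice each, the mitochondrial share differed between Ctrl and the other groups, and the cause was not tested.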

Other observations

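Other segments of the nephron, given as values beside the collecting duct genes, had these counts in Model against Ctrl, YHY against Model and YHY against Ctrl, where 19.6%, 5.63% and 26.1% of all genes were higher and 18.5%, 7.62% and 24.2% lower. Of 6 proximal tubule genes, 3, 1 and 4 were lower by edgeR and 0 were higher (median log2 fold changes -0.82, -0.59 and -1.56), with Lrp2, an endocytic receptor, at -1.68 in Model against Ctrl (edgeR adjusted p = 0.000399). The 1 lower in YHY against Model became 0 in the set of 9 mice, 2 with library size alone, 3 with DESeq2, without a filter or without YHY 2, and 4 without YHY 4. Of 3 thick ascending limb genes, 2, 0 and 2 were lower and 0 higher by edgeR (medians -1.29, 0.43 and -1.24; DESeq2 called 1 higher in YHY against Model), with Umod at -2.86 in Model against Ctrl (edgeR adjusted p = 5.43e-05). Of 3 distal convoluted tubule genes, 2, 0 and 2 were higher and 0, 1 and 1 lower (medians 1.33, -0.05 and 1.28), with the sodium chloride cotransporter Slc12a3 at 1.33 in Model against Ctrl (edgeR adjusted p = 0.000256).

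Against the same shares of all genes, of 4 podocyte genes 1, 0 and 2 were higher and 0, 0 and 1 lower by edgeR (medians 0.66, -0.44 and 0.23), with Nphs1 at 1.86 in Model against Ctrl (edgeR adjusted p = 5.44e-05). The podocyte genes called lower were 1 in Model against Ctrl without Model 1, 2 in YHY against Model without Model 4, and 1 in YHY against Model and 2 in YHY against Ctrl without YHY 4. Of 4 endothelium genes 0 were called in any comparison by edgeR (medians 0.10, -0.07 and 0.10), and DESeq2 called 1 lower in YHY against Model. By edgeR 1 was lower in YHY against Model without Model 4 or YHY 4, and 1 in YHY against Ctrl without Model 1 or YHY 4. Of 5 immune genes 4 were tested, with Cd68 higher in Model against Ctrl (1.05, edgeR adjusted p = 0.00730) and in YHY against Ctrl (1.79, edgeR adjusted p = 7.67e-05) and 0 called in YHY against Model by edgeR or DESeq2 (medians -0.03, 0.52 and 0.42). Without YHY 4, 1 was higher in YHY against Model, and the call of Cd68 in Model against Ctrl was lost with library size alone.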
